A study of Rattus norvegicus with 20 samples.

Results

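A set of 8 classical markers of GABAergic interneurons, Gad1, Gad2, Slc32a1, Pvalb, Calb1, Calb2, Lhx6 and Reln, was followed in sprouting and non-sprouting cortical neurons of the rat after stroke. They were taken as every array probe whose name or description gives 1 of these 8 genes, whatever its values. This gave 14 probes on 23 spots per array, of 41012 probes in all, and 8 of the 33082 genes that passed a filter on dim signals. All 14 probes passed that filter and none was saturated on any array.

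Both cell types, named as sprouting and non-sprouting neurons in the labels, came from rats aged 2 months with a cortical infarct. All groups shared the stroke and the injection of 2 fluorescent conjugates of cholera toxin B, a tracer that axon terminals take up and carry back to the cell body. The first conjugate (Alexa 488) was placed in cortex beside the infarct, and the other (Alexa 647) was placed at the same site 21 days or 7 days later, in separate groups of 5 animals each. About 300 neurons of each type were captured by laser from every animal 7 days after the second injection. Strain and sex are not given in the sources used here. The RNA was amplified with T7 polymerase, and the sprouting and non-sprouting RNA of an animal were hybridised together on 2-colour arrays, 2 per animal with the dyes exchanged. Unless a level is named, values below are log2 ratios within an animal, with sprouting neurons over non-sprouting ones, averaged over its 2 arrays. Animals are the replicates, and the tests of means set them against a spread between animals that is shared by both days.

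GABAergic interneurons are the inhibitory neurons of the cortex. They make GABA from glutamate with the enzymes encoded by Gad1 and Gad2, and fill synaptic vesicles with it through the transporter encoded by Slc32a1. Subclasses are told apart by calcium-binding proteins (Pvalb, Calb1, Calb2), by neuropeptides and by transcription factors such as Lhx6, while the neurons that send long axons to other areas of cortex are mostly glutamatergic. In pools of captured cells, fewer cells of a type and less RNA per cell cannot be told apart.

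None of the 8 markers differed between sprouting and non-sprouting neurons at a Benjamini-Hochberg adjusted p under 0.05 in limma, at day 21, at day 7 or over both days. Across all genes 0% passed at day 21, 0.00302% at day 7 (1 gene, RGD1311768_predicted, named after its value was seen) and 0% for the mean of both days, so the count of 0 members lies at the background of the series. At an unadjusted p under 0.05, Pvalb was the 1 member of 8 at day 21, with a mean above 0 (background 5.79% of genes, with 3.43% above and 2.36% below 0). At day 7 there were 2 of 8, Gad2 above and Calb1 below 0 (background 9.48%, with 4.51% above and 4.97% below). Over both days there were 3 of 8, Gad2 and Pvalb above and Calb1 below 0 (background 11.0%, with 5.61% above and 5.39% below). These counts rest on the brightest probe of each gene. Over all 14 probes there were 1 at day 21, 3 at day 7 and 6 over both days (background of all probes 5.73%, 9.59% and 11.1%). The 6 were the probes of Gad2 and Pvalb and the second of Gad1 above 0, the brightest of Calb1 and the second of Reln below 0, and the dimmest of Calb1 above 0. The counts were not tested as a group. The median ratio of the members was 0.05 at day 21 and 0.04 at day 7, beside -0.0013 and -0.0054 over all genes. On each day 5 members had a mean above 0 and 3 a mean below 0.

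**Figure D1:**
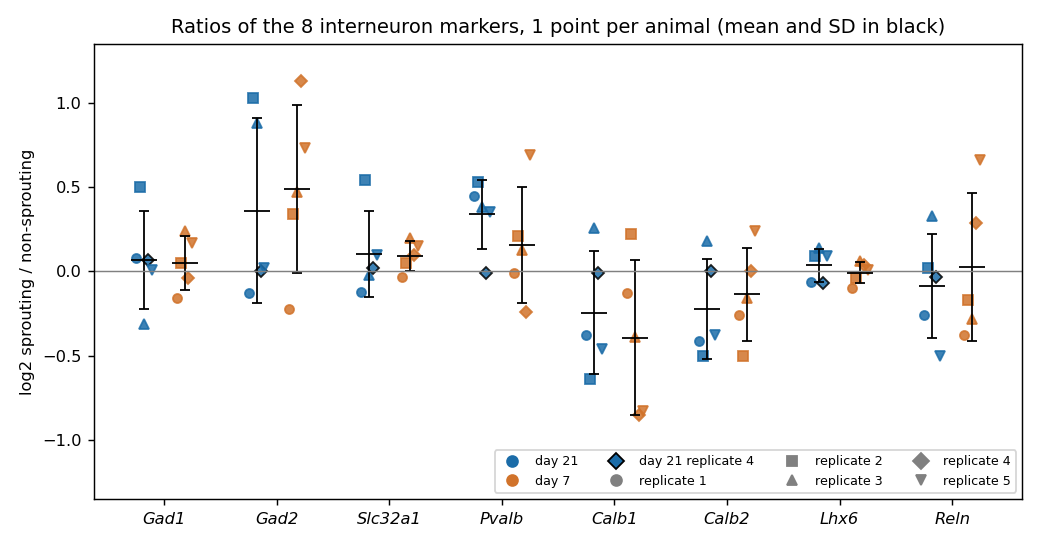
Log2 ratio of sprouting over non-sprouting neurons (vertical axis) for each marker, with day 21 animals in blue, day 7 animals in orange, a symbol per replicate number and the mean and SD over 5 animals in black. Gad2 spans -0.22 to 1.13, Lhx6 stays between -0.10 and 0.14, and the points of day 21 replicate 4 (black outline) lie near 0 for every marker.

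The animals differed in depth of contrast. Day 21 replicate 4 had all 8 markers within 0.072 of 0, and over all genes its 2 dye-exchanged arrays correlated at -0.36, with an SD of its ratios over genes of 0.065. In the other 9 animals this correlation was 0.33 to 0.73 and the SD 0.15 to 0.24. This animal thus pulled the day 21 mean of every marker towards 0. Without it the day 21 means were 0.45 for Gad2, 0.07 for Gad1, -0.30 for Calb1, -0.28 for Calb2, 0.06 for Lhx6 and -0.10 for Reln. Those of Slc32a1 and Pvalb are given below. The share of probes above background ran from 40.3 to 94.6% over the 20 arrays, with a median signal of 98.7 to 344.7 units in Cy5 and 133.9 to 281.4 units in Cy3.

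Of the enzymes that make GABA, Gad2 (GAD65, found mainly at nerve terminals) had the widest spread of the members. Its ratios at day 21 were -0.13, 1.03, 0.88, 0.00 and 0.02 in replicates 1 to 5. At day 7 they were -0.22, 0.34, 0.47, 1.13 and 0.73. Values near or above 0.9 thus occurred in animals of both days, each day held 1 animal below -0.1, and the days overlapped throughout. Gad2 averaged 0.36 ± 0.55 at day 21 and 0.49 ± 0.50 at day 7 (SD, n = 5 each), a 1.28-fold and a 1.41-fold higher level in sprouting neurons (limma, adjusted p = 0.857 and 0.511). The mean of both days was 0.43, with a 95% interval of 0.10 to 0.75 (limma, unadjusted p = 0.016, adjusted p = 0.41), and 7 of 10 animals were above 0. An SD at least as large as that of Gad2 was seen in 0.795% of genes at day 21 and 2.35% at day 7.

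Gad1 (GAD67, which supplies most of the GABA of the cell) had smaller ratios than Gad2, and by its brightest probe another order of the animals. Its ratios were 0.08, 0.50, -0.31, 0.07 and 0.01 in day 21 replicates 1 to 5. They were -0.16, 0.05, 0.24, -0.04 and 0.17 in day 7 replicates 1 to 5. Day 21 replicate 3, with a Gad2 ratio of 0.88, had the lowest Gad1 ratio of all animals, and day 7 replicate 4, highest for Gad2, was near 0 for Gad1. The means were 0.07 ± 0.29 at day 21 and 0.05 ± 0.16 at day 7 (SD, n = 5 each; limma, adjusted p = 0.956 and 0.888). The 95% interval over both days was -0.09 to 0.21. With median centring in place of loess the day 7 mean of Gad1 lay below 0, as did those of Slc32a1 and Pvalb.

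Slc32a1 (VGAT, the vesicular GABA transporter) had 1 high animal and otherwise small ratios. Its ratios were -0.12, 0.54, -0.02, 0.02 and 0.10 in day 21 replicates 1 to 5. In day 7 replicates 1 to 5 they were -0.03, 0.05, 0.20, 0.10 and 0.15. Day 21 replicate 2 was the high animal, as for Gad1. The means were 0.10 ± 0.26 at day 21 and 0.09 ± 0.09 at day 7 (SD, n = 5 each; limma, adjusted p = 0.897 and 0.722). Without day 21 replicate 4 the day 21 mean was 0.12, and the 95% interval over both days was -0.03 to 0.22.

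Among the calcium-binding proteins, Pvalb marks the fast-spiking basket and chandelier cells. Its ratios at day 21 were 0.45, 0.53, 0.38, -0.01 and 0.35 in replicates 1 to 5, and 4 of 5 animals lay close together with only replicate 4 at 0. At day 7 they were -0.01, 0.21, 0.13, -0.24 and 0.69, spread on both sides of 0. Pvalb averaged 0.34 ± 0.20 at day 21 and 0.16 ± 0.34 at day 7 (SD, n = 5 each), 1.27-fold and 1.11-fold higher in sprouting neurons (limma, unadjusted p = 0.013 and 0.199, adjusted p = 0.841 and 0.669). Without day 21 replicate 4 the day 21 mean was 0.43 ± 0.08 (SD, n = 4). With any 1 animal left out, the lowest adjusted p of Pvalb at day 21 was 0.729 (limma). The mean of both days was 0.25, with a 95% interval of 0.07 to 0.43 (limma, adjusted p = 0.406).

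Calb1 (calbindin, carried by several interneuron types and in rodents also by upper-layer pyramidal cells) had lower values in sprouting neurons in 8 of 10 animals by its brightest probe. In day 21 replicates 1 to 5 the ratios were -0.38, -0.64, 0.26, -0.01 and -0.46. In day 7 replicates 1 to 5 they were -0.13, 0.22, -0.39, -0.85 and -0.83. The lowest values thus fell in the day 7 animals 4 and 5, and each day had 1 animal clearly above 0. The means were -0.24 ± 0.36 at day 21 and -0.39 ± 0.46 at day 7 (SD, n = 5 each), 1.18-fold and 1.31-fold lower (limma, unadjusted p = 0.17 and 0.038, adjusted p = 0.883 and 0.509). A ratio below 0 in at least 8 of 10 animals was found for 9.31% of all genes.

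Calb2 (calretinin, found in bipolar and other small interneurons) had ratios of -0.41, -0.50, 0.18, 0.00 and -0.38 in day 21 replicates 1 to 5. In day 7 replicates 1 to 5 they were -0.26, -0.50, -0.16, 0.00 and 0.24. On each day 3 animals lay below -0.1, and day 21 replicate 3 and day 7 replicate 5 lay on the other side. The means were -0.22 ± 0.29 at day 21 and -0.14 ± 0.28 at day 7 (SD, n = 5 each; limma, adjusted p = 0.841 and 0.716). The mean of both days was -0.18, with a 95% interval of -0.36 to 0.002.

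Lhx6, a transcription factor of interneurons born in the medial ganglionic eminence, was the dimmest member. At day 21 its probe was well above background on 6 of 10 arrays in the sprouting channel and on 6 of 10 in the non-sprouting channel, and at day 7 on 5 and 4 of 10. Its ratios were -0.06, 0.09, 0.14, -0.07 and 0.09 in day 21 replicates 1 to 5. They were -0.10, -0.04, 0.06, 0.04 and 0.01 in day 7 replicates 1 to 5. These small values are means of arrays that opposed each other: the ratio was below 0 with sprouting neurons in Cy5 and above 0 with sprouting neurons in Cy3 in all 10 animals. The 2 arrays of an animal lay 0.21 to 0.55 apart, and 0.921% of all genes had opposite signs in all 10 animals. The means were 0.04 ± 0.10 at day 21 and -0.01 ± 0.06 at day 7 (SD, n = 5 each; limma, adjusted p = 0.928 and 0.971).

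Reln encodes reelin, a secreted glycoprotein that guides layering in development and is made by part of the interneurons of adult cortex. In day 21 replicates 1 to 5 its ratios were -0.26, 0.02, 0.33, -0.03 and -0.50. In day 7 replicates 1 to 5 they were -0.38, -0.17, -0.28, 0.29 and 0.66. Animals of both days lay on both sides of 0, over a range of 1.16. The means were -0.09 ± 0.31 at day 21 and 0.03 ± 0.44 at day 7 (SD, n = 5 each; limma, adjusted p = 0.96 and 0.972).

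The dye-exchanged arrays show how much of this spread the hybridisation itself could give. For Reln the SD between animals was 14.9 times an array SD for the mean of an animal, taken from the gap between its 2 arrays. Both arrays had the same sign in all 10 animals. The factor was 9.79 for Calb1, 9.73 for Pvalb, 6.52 for Gad2, 4.57 for Calb2, 4.04 for Gad1 and 3.08 for Slc32a1. The median over all genes was 1.58. The factor was at least 1 for 7 of 8 markers, as for 67.8% of all genes, and 0.43 for Lhx6. The array SD counts the whole gap, with any constant dye offset. Such an offset cancels in the mean of an animal, so the factor can be too low. For Lhx6 the gap had the same direction in all 10 animals, and its factor does not show that animals differed by less than their arrays. The 2 arrays of an animal hold the same 2 RNA extracts, so that this factor covers labelling, hybridisation and scanning. The capture of each pool remains within the spread between animals. Its amplification remains there too if both arrays used the same amplified RNA.

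**Figure D2:**
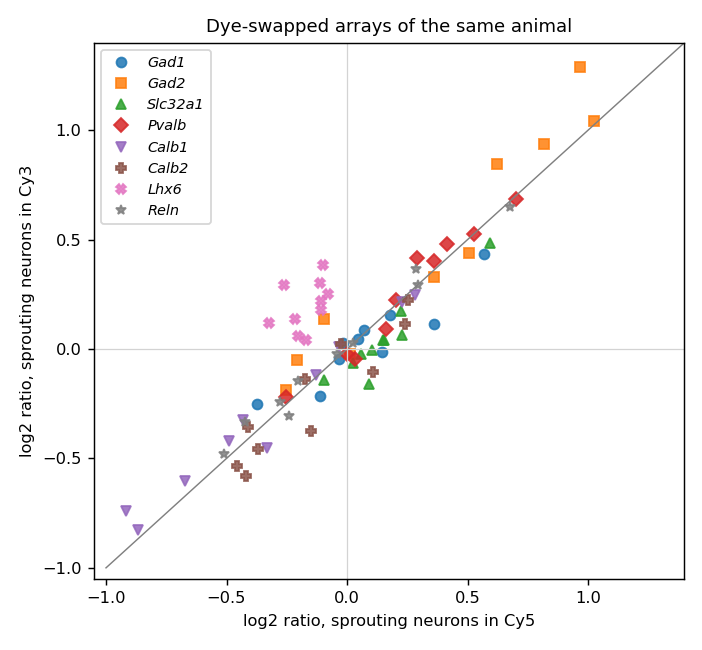
Log2 ratio on the array with sprouting neurons in Cy3 (vertical axis) against the array with sprouting neurons in Cy5 (horizontal axis), 1 point per marker and animal, with the line of equal values. Most points follow the line, and the 10 Lhx6 points lie off it in the upper left, below 0 on one array and above 0 on the other.

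Of the 8 markers 3 had several probes, which did not give the same picture. Over the 3332 genes with several probes, the ratios of the brightest and the next probe correlated over the 10 animals at a median r of 0.27, and 29.6% of these r were below 0. The probes of a gene are compared here by their ratios, never by their levels.

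Calb1 had 4 probes. The second brightest followed the first (r = 0.83 over 10 animals), with means of -0.11 ± 0.22 at day 21 and -0.02 ± 0.35 at day 7 (SD, n = 5 each). The next gave 0.07 ± 0.23 and 0.16 ± 0.16, and the dimmest, printed on 10 spots, 0.07 ± 0.21 and 0.16 ± 0.11, both with means above 0. Their r with the brightest probe were -0.10 and -0.26. Day 21 replicate 2 had the lowest ratio of its day on the brightest probe, at -0.64, and the highest on the dimmest, at 0.41. The 10 spots of the dimmest probe had an SD within an array of 0.03 to 0.07, below the gap between the probes. At day 7 the unadjusted p in limma was 0.048 for the dimmest probe, above 0, beside 0.038 for the brightest, below 0. Over both days the dimmest had a mean of 0.11 (unadjusted p = 0.043). With the 4 probes averaged the mean of both days was -0.039, against -0.32 for the brightest (limma, unadjusted p = 0.495 and 0.021, adjusted p = 0.817 and 0.419). The direction for Calb1 therefore depended on the probe, and none of the 4 passed in a limma fit of all probes (adjusted p at day 7 from 0.5 to 0.967).

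Gad1 had 3 probes, whose means were all above 0. The second brightest gave 0.16 ± 0.25 at day 21 and 0.29 ± 0.41 at day 7 (SD, n = 5 each), with -0.38, 0.29, 0.45, 0.34 and 0.74 in day 7 replicates 1 to 5. It had its highest ratio in day 7 replicate 5, where the brightest probe stood at 0.17. The third gave 0.05 ± 0.13 and 0.08 ± 0.24 and was well above background in the sprouting channel on 7 of 10 arrays of each day. Their r with the brightest probe were 0.61 and 0.46. Over both days the second had a mean of 0.22 (limma over all probes, unadjusted p = 0.044, adjusted p = 0.439).

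Reln had 2 probes that ran in parallel (r = 0.81) at different heights. The second had ratios of -0.40, 0.20, -0.13, 0.00 and -0.71 in day 21 replicates 1 to 5 and -0.67, -0.33, -0.78, -0.22 and 0.33 in day 7 replicates 1 to 5. Day 7 replicate 5 was the highest on both probes. Its means were -0.21 ± 0.35 at day 21 and -0.33 ± 0.44 at day 7 (SD, n = 5 each; limma over all probes, adjusted p = 0.9 and 0.532), against -0.09 and 0.03 for the brightest probe. Over both days its mean was -0.27 (unadjusted p = 0.037, adjusted p = 0.428).

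**Figure D3:**
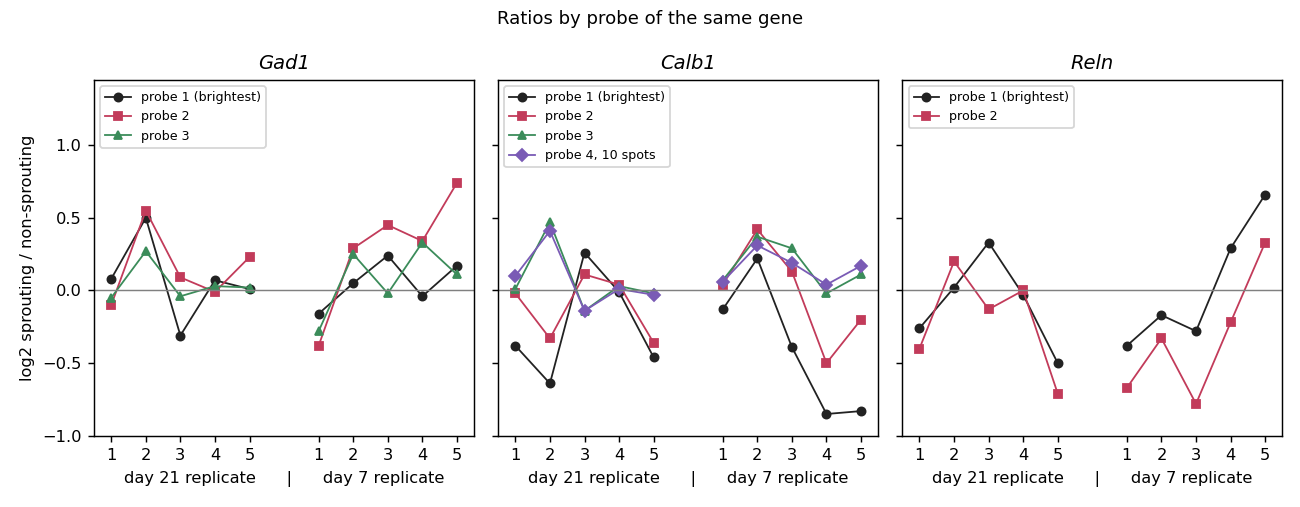
Log2 ratio of sprouting over non-sprouting neurons (vertical axis) by animal (day 21 replicates, then day 7 replicates) for every probe of Gad1, Calb1 and Reln, 1 line per probe. The 2 brightest Calb1 probes reach down to -0.85 and -0.50, while the other 2 stay between -0.14 and 0.47, and the 2 Reln lines run in parallel.

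No ratio of a marker passed the test between the days. The difference of day 21 minus day 7 lay between -0.13 for Gad2 (95% interval -0.79 to 0.52) and 0.18 for Pvalb (-0.17 to 0.54), with limma adjusted p from 0.943 to 0.999 (0% of all genes passed). No marker had an unadjusted p under 0.05 for this difference, where 4.05% of all genes did, 1.72% with a negative difference. Scan days were shared by both days in 2 cases, 1 with 1 animal per day and 1 with 2 day 21 animals and 1 day 7 animal. Within them the differences ran from -1.11 to 0.59 and from -0.49 to 0.64 over the 8 markers, and with scan day as a block from -0.62 to 0.53 (lowest adjusted p = 0.254).

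Channel levels, on a log2 scale after Aquantile normalization between arrays, show each cell type by itself and place the ratio of an animal on its level. Pvalb levels in sprouting neurons were 12.94, 13.57, 13.57, 13.14 and 13.17 in day 21 replicates 1 to 5, against 12.84, 12.69, 13.55, 12.30 and 13.20 in day 7 replicates 1 to 5. In non-sprouting neurons they were 12.49, 13.04, 13.19, 13.14 and 12.82 at day 21, against 12.86, 12.47, 13.42, 12.54 and 12.51 at day 7. The levels of the days overlapped in both cell types. Pvalb averaged 13.28 ± 0.28 at day 21 and 12.92 ± 0.48 at day 7 in sprouting neurons, a difference of 0.36, and 12.94 ± 0.29 and 12.76 ± 0.40 in non-sprouting neurons (SD, n = 5 each; limma, adjusted p = 0.587 and 0.733).

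Gad2 levels in sprouting neurons were 8.25, 9.93, 9.78, 9.11 and 9.21 in day 21 replicates 1 to 5, against 8.24, 9.55, 9.91, 9.68 and 8.98 in day 7 replicates 1 to 5. In non-sprouting neurons they were 8.38, 8.90, 8.91, 9.12 and 9.19 at day 21, against 8.46, 9.20, 9.44, 8.55 and 8.25 at day 7. The animals with a high Gad2 ratio were not of 1 kind: day 21 replicates 2 and 3 had high levels in sprouting neurons, whereas day 7 replicate 5 had the lowest level of all in non-sprouting neurons. Replicate 1 of each day was lowest in sprouting neurons and had a ratio below 0.

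Over both cell types and all 8 markers, the level at day 21 minus that at day 7 lay between -0.32 (Calb2 in sprouting neurons) and 0.36 (Pvalb in sprouting neurons), and none passed (limma, adjusted p from 0.587 to 0.99). Across all genes 0% passed in each cell type. At an unadjusted p under 0.05 there were 8.98% of genes in sprouting and 9.18% in non-sprouting neurons, and no marker was among them. With scan day as a block the differences ran from -0.57 to 0.58 in sprouting and from -0.17 to 0.65 in non-sprouting neurons.

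**Figure D4:**
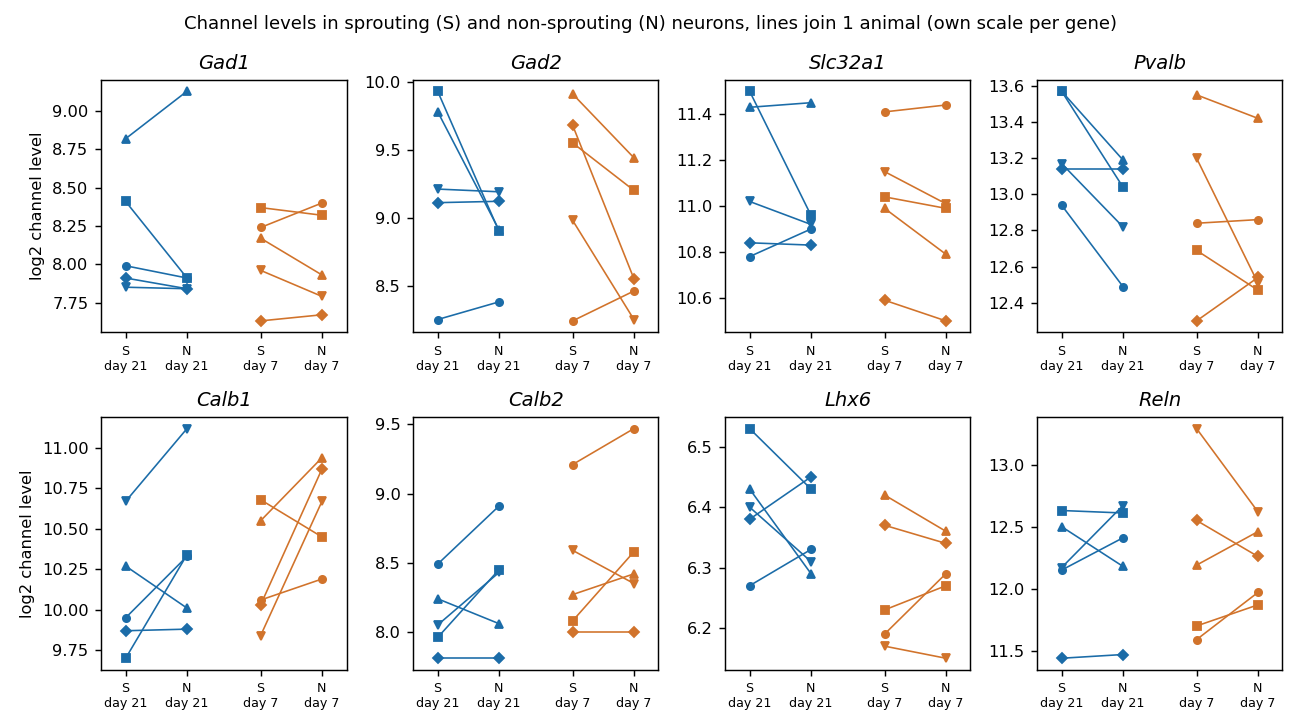
Log2 channel level (vertical axis, own scale for each gene) in sprouting (S) and non-sprouting (N) neurons, with a line joining both cell types of 1 animal, day 21 in blue and day 7 in orange. Pvalb is higher at S than at N in 4 of 5 day 21 animals, Calb1 is lower at S in 8 of 10 animals, and the levels of the 2 days overlap for every marker.

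The markers were also compared with each other over the 10 animals. Of 28 pairs 17 had a Pearson r above 0, from -0.52 for Gad1 with Calb1 to 0.80 for Gad1 with Slc32a1, and none passed a permutation test adjusted over the 28 pairs (lowest adjusted p = 0.173). For Gad1 with Slc32a1, Spearman's rho was 0.62 (permutation test, p = 0.009 for r and 0.0611 for rho, adjusted p = 0.173 and 0.376). Without the 2 animals farthest from the median of Gad1, day 21 replicates 2 and 3, r was 0.52, and it was 0.79 within day 21 and 0.92 within day 7. The next pairs were Calb2 with Reln (r = 0.75, rho = 0.55), Gad2 with Reln (r = 0.72, rho = 0.70) and Gad2 with Lhx6 (r = 0.70, rho = 0.73). Their permutation p for r were 0.0123, 0.0199 and 0.0301, and for rho 0.105, 0.0299 and 0.0194 (adjusted p = 0.173, 0.186 and 0.21 for r, and 0.421, 0.376 and 0.376 for rho). Without their 2 farthest animals r was 0.43, 0.64 and 0.68. Gad2 with Slc32a1 had r = 0.59 and rho = 0.61 (permutation test, p = 0.0522 and 0.0671, adjusted p = 0.292 and 0.376), and r = 0.65 without its 2 farthest animals. Gad1 with Gad2, both enzymes of the same step, had r = 0.23 and rho = 0.13 (permutation test, p = 0.536 and 0.734, adjusted p = 0.827 and 0.951), and r = 0.29 without the 2 farthest animals.

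The order of the animals for Gad1 depended on the probe. In a comparison added after these values were seen, the other probes of Gad1, Calb1 and Reln were set against the brightest probe of each other marker (42 pairs). With Gad2, the second and the dimmest Gad1 probe both had r = 0.71, with rho = 0.76 and 0.71 (permutation test, p = 0.0217 and 0.022 for r, 0.0138 and 0.0261 for rho, adjusted p over the 42 pairs = 0.182 for both r and 0.225 for both rho). Without the 2 farthest animals these r were 0.64 and 0.45. The second Gad1 probe with Slc32a1 had r = 0.69 and rho = 0.90 (permutation test, p = 0.026 and 0.00087, adjusted p = 0.182 and 0.0365), and r = 0.87 without the 2 farthest animals. The dimmest Calb1 probe with Gad1 had r = 0.82 and rho = 0.75 (permutation test, p = 0.00404 and 0.0172, adjusted p = 0.116 and 0.225), where the brightest Calb1 probe had r = -0.52.

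Calb1 with Calb2, by their brightest probes, ran together at day 21 (r = 0.99) and against each other at day 7 (r = -0.95), a difference between 5 animals and 5 that was not tested. Of the 28 pairs, this one had the highest r within day 21 and the lowest within day 7. The change of sign depended on the Calb1 probe. At day 21 and day 7 the second probe gave 0.80 and -0.79, the third -0.64 and -0.62 and the dimmest -0.74 and -0.48.

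By animal, the number of markers above 0 was 2, 6, 6, 3 and 5 of 8 in day 21 replicates 1 to 5 and 0, 5, 5, 4 and 7 in day 7 replicates 1 to 5. No marker had the same sign in all 5 animals of a day. Over all genes 4.23% were above and 4.06% below 0 in every animal of day 21, and 3.55% and 5.07% in every animal of day 7.

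The genes whose ratio was most like that of a marker over the 10 animals were ranked by Pearson r among 13846 genes with a symbol that were measured in all of them. For Pvalb the first was Kcnc1, a voltage-gated potassium channel of the Kv3 family (r = 0.92), with 0.25, 0.25, 0.19, -0.03 and 0.20 in day 21 replicates 1 to 5 and -0.11, 0.26, 0.19, -0.23 and 0.63 in day 7 replicates 1 to 5. It shared with Pvalb the value near 0 in day 21 replicate 4, the lowest ratio in day 7 replicate 4 and the highest in day 7 replicate 5. The next was Smarca1 (r = 0.91). The first and second were Capn12 and Egln3 for Gad1 (both r = 0.93), Ppp2r5e and Lars1 for Gad2 (0.95 and 0.92), and Setdb1 and Slc6a7 for Slc32a1 (0.97 and 0.95). For Calb1 the second was Or13a27c (0.95). The first and second were Or1f33 and Spata18 for Calb2 (0.94 and 0.91), Or2ag19b and Ppp1r9a for Lhx6 (0.93 and 0.92), and Galnt2 and Stap2 for Reln (0.95 and 0.92). These are the highest of 13846 values of r for each marker on 10 shared pairs of arrays, and carry no test.

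Other genes of GABAergic interneurons were taken from a list of 41, of which 35 were measured. Nos1, Prox1 and Elfn1 were too dim for the filter, and no probe was matched to Dlx6, Dlx6os1 and Nkx2-1. None of the 35 passed on either day, over both days or between the days (limma). At day 21, 19 had a mean above and 16 below 0, and at day 7 there were 16 and 19. Vip and Lamp5 were the 2 genes of the 35 at an unadjusted p under 0.05 at day 7 (limma), both below 0. The background was 9.48% of all genes, with 4.97% on that side. Over both days there were 5 of 35 (background 11.0%), 2 above and 3 below 0 (background 5.61% above and 5.39% below). Kcnc1 and Kcnc2 were those above 0 (limma, unadjusted p = 0.0499 and 0.0353). Lamp5 and Vip were among those below 0 (limma, unadjusted p = 0.0014 and 0.0084). The medians of the list were 0.0037 at day 21 and -0.013 at day 7.

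Abat, the transaminase that breaks down GABA, averaged -0.05 ± 0.07 at day 21 and 0.10 ± 0.14 at day 7 (SD, n = 5 each; limma, adjusted p = 0.925 and 0.544).

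Among the neuropeptides that mark other subclasses, Sst (somatostatin) had ratios of -0.51, -1.33, -0.29, -0.09 and -0.21 in day 21 replicates 1 to 5, all below 0, as for 4.06% of all genes. In day 7 replicates 1 to 5 they were 0.65, -0.24, -1.45, 0.21 and -0.28, on both sides. The means were -0.49 ± 0.50 at day 21 and -0.22 ± 0.78 at day 7 (SD, n = 5 each; limma, adjusted p = 0.841 and 0.804). Vip, which marks a subclass that inhibits other interneurons, was below 0 in 4 of 5 day 21 animals and in 5 of 5 day 7 animals, with -0.33, -0.82, 0.47, -0.04 and -0.63 at day 21 and -0.28, -1.60, -0.52, -0.32 and -1.94 at day 7 (limma, adjusted p = 0.921 and 0.43). Over all genes 5.07% were below 0 in all 5 day 7 animals, and 2.40% in at least 9 of 10 animals. Crh (corticotropin-releasing hormone) had 0.14 ± 0.62 and -0.77 ± 1.08, Npy (neuropeptide Y) -0.15 ± 0.75 and 0.08 ± 0.88, and Cck (cholecystokinin) 0.08 ± 0.41 and -0.03 ± 0.66, at day 21 and day 7. These peptide genes had SDs of 0.41 to 1.08, above the median SD over all genes of 0.10 at day 21 and 0.12 at day 7.

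Of the remaining genes, Lamp5, a membrane protein of neurogliaform cells, had ratios of -0.40, 0.07, -0.38, -0.02 and -0.34 in day 21 replicates 1 to 5 and of -0.84, -0.06, -0.54, -0.41 and -1.16 in day 7 replicates 1 to 5. It was below 0 in 9 of 10 animals, as 2.40% of genes were in at least that many (limma, adjusted p = 0.864 at day 21 and 0.335 at day 7). Kcnc2, a potassium channel of fast-spiking cells, averaged 0.11 ± 0.13 at day 21 and 0.19 ± 0.29 at day 7, and Rab3b, a small GTPase of synaptic vesicles, 0.12 ± 0.12 and 0.03 ± 0.19 (SD, n = 5 each). The transcription factors Sp8 and Sp9 stayed near 0. Sp8 had 0.06 ± 0.05 at day 21 (n = 4, since replicate 1 lacked a value) and 0.004 ± 0.02 at day 7, and Sp9 0.04 ± 0.07 and -0.05 ± 0.06.

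**Figure D5:**
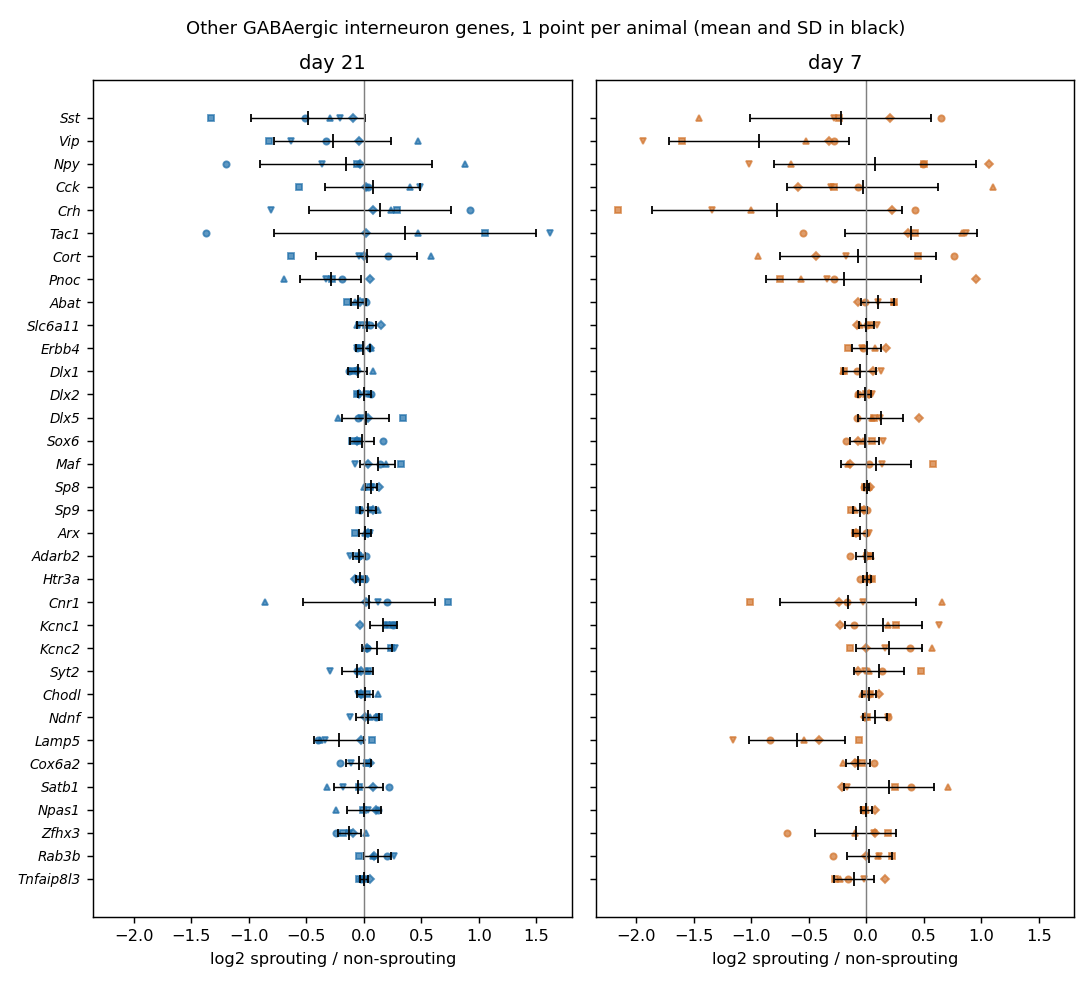
Log2 ratio of sprouting over non-sprouting neurons (horizontal axis) for other interneuron genes at day 21 (left, blue) and day 7 (right, orange), 1 point per animal with the mean and SD in black. Sst lies below 0 in all 5 day 21 animals and Vip in all 5 day 7 animals, as do 4.06% and 5.07% of all genes. Most transcription factors lie within narrow bands around 0.

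The pools were also read for markers of other cells. All 7 general neuronal markers were above background on every array, as were 7 of 11 measured markers of glutamatergic projection neurons, 6 of 9 of astrocytes, 6 of 10 of oligodendrocytes, 6 of 9 of microglia and 4 of 8 of endothelial cells. Slc17a7, the vesicular glutamate transporter of cortical projection neurons, was well above background on 13 of 20 arrays in the sprouting and on 12 of 20 in the non-sprouting channel, with ratios of 0.02 ± 0.04 at day 21 and -0.03 ± 0.10 at day 7 (SD, n = 5 each). Mbp of oligodendrocytes, Aif1 of microglia and Cldn5 of endothelium were above background on 20 of 20 arrays in both channels, and Gfap of astrocytes on 18 and 20.

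Oligodendrocyte markers also spread over the animals. Their median ratio over 10 genes was 0.53, -0.27, -0.35, 0.01 and -0.16 in day 21 replicates 1 to 5 and -0.27, 0.21, -0.04, 0.79 and 0.94 in day 7 replicates 1 to 5. At day 7 the animals highest for these markers, replicates 4 and 5, were also highest for Gad2 and Reln. They were lowest for Calb1 by its 2 brightest probes. On the third and the dimmest Calb1 probe, replicate 5 stood above replicate 1 (0.11 against 0.07, and 0.17 against 0.06). At day 21 the animals highest for Gad2, replicates 2 and 3, were instead the lowest for oligodendrocyte markers. Their summed level on the linear scale ran from 13041 to 51574 in sprouting and from 14851 to 45191 in non-sprouting neurons at day 21, and from 35603 to 77819 and from 38838 to 71817 at day 7. The part of these markers in the results was not tested. Median ratios of glutamatergic markers stayed between -0.04 and 0.08 in all 10 animals, and those of astrocyte markers between -0.18 and 0.49.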

How the data were processed

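The deposited files are scanner tables of 20 two-colour rat arrays, made with Agilent Feature Extraction 9.1.3.1 per the file headers, and hold intensity as mean signal and local background per spot and channel. The authors also deposited normalized log2 ratios by a method not given in the sources used here, which served as an alternative. In it, 20 columns that repeat an array's name were not used. Labels give animal, day, cell type and dye. The microarrays' number limits the precision, and 5 animals stand in each day.

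With limma 3.58.1 in R 4.3.3, mean signals were background-corrected (normexp, offset 50) and normalized by loess with 2256 control spots at weight 0. Spots marked as outliers were dropped after the loess fit, and ratios were turned so that sprouting neurons are the numerator. Values were averaged over a probe's spots and then over both arrays of an animal, and an animal counted only with values on both arrays. Probes were kept where at least 0.5 of the arrays of some cell type and day read well above background and 3 animals per day had values (37344 of 41012 probes). The brightest probe stood for a gene (33082 genes). One lmFit and eBayes fit of all genes had a mean per day, with two-sided tests, a Benjamini-Hochberg adjusted p threshold of 0.05 and 95% intervals. Levels used Aquantile normalization. Correlations used a permutation test with 100000 resamples (1e+05).

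Names, and nothing else, were updated from RefSeq (GRCr8 assembly) by accession (10658 probes), symbol (4654) or synonym (3923), and 21777 kept the file's name. The build behind the array is not given in the sources used here, so no positions are printed. The files used here hold no probe sequences, so none is printed. The code was tested on simulated data.

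The members and lists were chosen with earlier results of these data known. Beyond the 8 members with all probes, named genes were Sst, Vip, Npy, Cck and Abat, the 4 list members with the smallest p for each day and for the difference, the 2 genes most like each marker, and 5 defining markers of other cells, and genes that the rule also takes but that are not named are not reported here. Alternatives were other background corrections, normalizations, filters, probe rules, fits, blocks by replicate number or scan day, and each animal left out. The scan day as a fixed block and the correlations of other probes were added after seeing the data.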

Additional observations from a re-analysis of the deposited data

Results flagged for a closer look

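Of 48 groups of 5 values, the levels and ratios of the 8 markers by cell type and day, 2 held a sample whose gap to the nearest other exceeded 0.71 of the range, and chance gives about 1 in 20. Both were levels in non-sprouting neurons of day 21 replicate 3. Gad1 stood there at 9.13 on the log2 scale, against 7.91, 7.91, 7.84 and 7.84 in the other day 21 animals, a gap of 0.94 of the range. Slc32a1 stood at 11.45, against 10.90, 10.96, 10.83 and 10.92, a gap of 0.79 of the range. In sprouting neurons of the same animal Gad1 was at 8.82 and Slc32a1 at 11.43, the highest and the second highest of the day 21 levels.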

How the results depend on the processing

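No marker passed in the ratios of either day or in levels under any alternative run. Over both days 2 of 8 passed with 20 arrays fitted singly (random block per animal, dye effect), Pvalb at 0.25 and Gad2 at 0.43 (limma, adjusted p = 0.0341 and 0.0419), where other alternatives for the mean left none. In that fit 511 of 33082 genes passed. It used 1 correlation between the arrays of an animal, 0.578, for all genes. Pvalb and Gad2 had far closer arrays than the median gene, with factors of 9.73 and 6.52 against 1.58. Their 2 arrays thus counted partly as separate replicates, and these adjusted p can be too small. Leaving out single animals gave 0 of 8 members in every contrast. Genes past the threshold at day 7 were 1, but 0 with processed signals, median centring, the mean of all probes, a fit per day or the replicate block, 402 with 20 arrays, and 0 to 1 with 1 animal left out (1 without day 7 replicate 5 or day 21 replicate 3, otherwise 0). With 20 arrays they were 511 over both days and 4 for the difference (Olfm3, Htr7 and 2 with no symbol, named after their values were seen). Replicate numbers do not pair the animals, since the cohorts were separate and same-numbered animals correlated at -0.20 to 0.0009, and the replicate block changed no call of a marker.

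Signs turned as follows. With processed signals Lhx6 was -0.069 at day 21 and -0.10 over both days. With median centring day 7 gave -0.0054 for Gad1, -0.067 for Slc32a1, -0.046 for Pvalb, 0.046 for Lhx6 and -0.16 for Reln, the mean of both days -0.0015 for Slc32a1, and the difference 0.047 for Reln. With the mean of all probes Reln was -0.15 at day 7, and the differences were -0.048 for Gad1, -0.030 for Calb1 and 0.0073 for Reln. Scan day as a fixed block gave a difference of -0.022 for Gad1.

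For levels without normalization between arrays, day 21 minus day 7 was -0.37 for Slc32a1 and -0.11 for Pvalb in sprouting neurons, and -0.10 for Gad2, -0.38 for Slc32a1, -0.29 for Pvalb and -0.43 for Reln in non-sprouting neurons, where the median of all genes was -0.14 and -0.13. Quantile normalization gave 0.0091 for Gad2 in sprouting neurons. Scan day as a fixed block gave 0.30 for Gad2 and 0.36 for Calb1 in sprouting and 0.13 for Calb2 in non-sprouting neurons.

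With 1 animal left out, signs turned in these ranges. At day 21 they were -0.040 to 0.16 for Gad1, -0.19 to 0.014 for Reln and -0.0062 to 0.16 for Slc32a1. At day 7 they were -0.023 to 0.017 for Lhx6 and -0.13 to 0.13 for Reln, and over both days -0.11 to 0.020 for Reln. For the difference they were -0.19 to 0.0074 for Calb2, -0.090 to 0.11 for Gad1, -0.31 to 0.027 for Gad2, -0.22 to 0.046 for Reln and -0.10 to 0.068 for Slc32a1. For levels in sprouting neurons they were -0.034 to 0.21 for Gad1, -0.27 to 0.24 for Gad2, -0.25 to 0.17 for Reln and -0.034 to 0.17 for Slc32a1. In non-sprouting neurons they were -0.15 to 0.20 for Gad1, -0.014 to 0.28 for Gad2, -0.071 to 0.23 for Reln and -0.047 to 0.19 for Slc32a1. The causes were not tested.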
